A study of Homo sapiens with 24 samples.

Results

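Aminoacyl-tRNA synthetases are the enzymes that load each amino acid onto its tRNA before the tRNA enters the ribosome. The 35 synthetase genes described here comprise 19 genes for cytosolic enzymes and 16 genes for mitochondrial enzymes, whose symbols carry the suffix 2. They were chosen by name, with earlier results of these data known, from the 27431 gene symbols found in 3 genome-wide tables. All 35 were listed in each table. The set is not complete, and no aspartate enzyme was analysed here.

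The tables compare messenger RNA of HER2-positive breast carcinoma lines with and without knockdown of TFAP2C, which encodes the transcription factor AP-2γ. SKBR3_siAP2C and HCC1954_siAP2C cells received an siRNA against TFAP2C with a lipid reagent, and SKBR3_siNT and HCC1954_siNT cells received a non-targeting siRNA, with 72 to 96 h of incubation in every transient group. HCC1954_shAP2C cells are stable clones carrying an shRNA against TFAP2C from a lentivirus, and HCC1954_shNT cells are the clones with the negative control shRNA. The labels do not say how many clones these were, and the submitters state that they did not authenticate the lines. Of the 24 samples in 8 groups, the 18 samples of these 6 groups, 3 per group, stand behind the values below, and a further table, of selected HCC1569 genes, held no synthetase gene and is not used here.

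In human cells the cytosolic and the mitochondrial enzyme for the same amino acid are usually products of separate nuclear genes. GARS1 and KARS1 are exceptions, since each encodes the enzyme of both compartments, and EPRS1 encodes a fused enzyme for glutamate and proline. Several cytosolic enzymes sit together in the multi-synthetase complex, held by the scaffold proteins AIMP1, AIMP2 and EEF1E1. When amino acids run short or protein folding in the endoplasmic reticulum is disturbed, the factor ATF4 raises transcription of many cytosolic synthetase genes together with asparagine synthetase (ASNS) and amino acid transporters, acting at composite sites that ATF4 binds with C/EBP proteins. Mitochondrial enzymes serve only the translation of the few proteins that mitochondrial DNA encodes.

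The bases around the gene start, 250 before it and 50 after it, were read from RefSeq (GRCh38.p14) for 30 of the 35 genes. LARS1, VARS1, YARS1, AARS2 and VARS2 had no match. The letters TGATGCAA, a form of the ATF4 and C/EBP composite site, occurred on either strand in 6 of 16 cytosolic promoters (37.5%), in 0 of 14 mitochondrial promoters, and in 1.08% of 27305 genes. This form was picked after several others had been looked at, 8 motifs in all, so the counts describe the promoters and are no test. The 6 windows of 120 bases below carry it and are shown because their genes belong to the group of 13 known ATF4 targets followed in the results, 10 of which had a promoter in the table. Each is written 5′ to 3′ on the strand of its gene, with the motif, or TTGCATCA where it lies on the other strand, in capitals.
AARS1 (chr16:70289630-70289749, minus strand): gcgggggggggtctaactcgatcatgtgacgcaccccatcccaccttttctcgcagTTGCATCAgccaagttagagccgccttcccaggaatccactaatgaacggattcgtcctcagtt
CARS1 (chr11:3057374-3057493, minus strand): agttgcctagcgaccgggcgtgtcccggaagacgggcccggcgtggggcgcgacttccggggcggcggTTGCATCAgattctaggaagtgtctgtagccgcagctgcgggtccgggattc
IARS1 (chr9:92293648-92293767, minus strand): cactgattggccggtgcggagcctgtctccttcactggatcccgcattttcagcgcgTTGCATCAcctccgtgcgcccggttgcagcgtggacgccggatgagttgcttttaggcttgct
MARS1 (chr12:57487998-57488117, plus strand): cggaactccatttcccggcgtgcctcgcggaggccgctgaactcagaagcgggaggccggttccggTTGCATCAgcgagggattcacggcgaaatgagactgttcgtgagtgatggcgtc
NARS1 (chr18:57621787-57621906, minus strand): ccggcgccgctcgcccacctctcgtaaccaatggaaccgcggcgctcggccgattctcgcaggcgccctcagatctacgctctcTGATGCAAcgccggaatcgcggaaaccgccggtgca
TARS1 (chr5:33440895-33441014, plus strand): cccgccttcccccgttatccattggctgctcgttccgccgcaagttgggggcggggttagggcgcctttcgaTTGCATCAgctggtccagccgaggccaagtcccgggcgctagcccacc

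A palindrome bound by AP-2 proteins, GCCNNNGGC, occurred in 9 of the 30 promoters (30.0%), 4 of 16 cytosolic and 5 of 14 mitochondrial, against 26.6% of all genes. A match is a description of the letters and not a bound site. The histidine pair is shown for another reason: HARS1 and HARS2 lie head to head on chromosome 5, and their promoter windows share 184 bases, given here on the plus strand in lower case with no motif marked.
HARS1 and HARS2 (chr5:140691321-140691504, plus strand): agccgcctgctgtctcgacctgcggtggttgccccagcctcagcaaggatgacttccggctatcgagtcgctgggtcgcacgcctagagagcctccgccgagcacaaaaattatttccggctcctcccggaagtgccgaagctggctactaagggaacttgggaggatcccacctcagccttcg

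Levels are in FPKM, read fragments scaled to transcript length and to the mapped fragments of the library, and each is the authors' value for a whole group, pooled over its 3 samples, so no spread between samples can be given and the depth is unknown. The entries of a gene, 116 accessions for the 35 genes and 1 to 32 per gene, were summed. A gene is called risen or fallen where its leading entry, the tested accession with the highest mean FPKM, had a q-value under 0.05 in the authors' deposited table. Ratios are log2 of knockdown over control of the sums, with no pseudocount. The labels do not state whether a group's 3 samples were separate cultures, and p-values in the tables therefore reflect no more than the variation among those samples, possibly of technical origin. In bulk RNA, fewer expressing cells and less RNA per cell cannot be told apart.

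TFAP2C itself was at 53.9 FPKM in SKBR3_siAP2C and 157 in SKBR3_siNT, at 22.0 in HCC1954_siAP2C and 92.4 in HCC1954_siNT, and at 3.46 in HCC1954_shAP2C and 81.0 in HCC1954_shNT. It fell in all 3 comparisons. The HCC1954 shRNA groups stood further apart than the others: Spearman's rho between the groups over 15065 genes was 0.784 there, against 0.950 for HCC1954 siRNA and 0.971 for SKBR3. HCC1954_shAP2C cells also went against the HER2-positive description, with ERBB2 at 20.8 FPKM, against 1525 in HCC1954_shNT. Among the other epithelial markers, KRT19 was at 634 FPKM in HCC1954_shAP2C and 19.9 in HCC1954_shNT. CDH1 was at 20.7 FPKM in HCC1954_shAP2C and 149 in HCC1954_shNT, and in SKBR3 it was at 0.0970 FPKM in SKBR3_siAP2C and 0.0894 in SKBR3_siNT. Of 6 epithelial markers 5 or 6 reached 1 FPKM in every group, with sums of 1949 to 7347 FPKM. Fibroblast markers reached 1 FPKM in 0 or 1 of 5, with sums of 0.296 to 1.95. Leukocyte markers did so in 1 or 2 of 5, with sums of 4.73 to 38.8, mainly CD68, while PTPRC stayed at or under 0.0694. The endothelial markers summed to 0.172 FPKM in HCC1954_shAP2C and 21.3 in HCC1954_shNT, from PECAM1 and CDH5. The part of these differences in the shRNA results was not tested.

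By their medians, cytosolic synthetase transcripts were more abundant than mitochondrial ones in every group. The cytosolic median was 32.2 FPKM in SKBR3_siAP2C and 31.1 in SKBR3_siNT, 117 in HCC1954_siAP2C and 115 in HCC1954_siNT, and 52.5 in HCC1954_shAP2C and 35.2 in HCC1954_shNT. The mitochondrial median stayed between 9.55 and 12.5 FPKM in the 6 groups. Among genes of at least 1 FPKM, the median cytosolic gene stood at percentile 77.0 in SKBR3_siNT and 94.1 in HCC1954_siNT, and the median mitochondrial gene at percentile 51.5 in SKBR3_siNT and 41.2 in HCC1954_siNT. The extremes were steady: VARS1, for valine, was the lowest cytosolic gene in all 6 groups (2.27 to 4.77 FPKM), VARS2 the lowest mitochondrial gene (0.365 to 1.54 FPKM) and IARS2, for isoleucine, the highest mitochondrial gene (49.4 to 80.9 FPKM). The highest cytosolic gene was GARS1 in SKBR3_siAP2C and HCC1954_siAP2C, NARS1 in SKBR3_siNT and HCC1954_shAP2C, AARS1 in HCC1954_siNT and KARS1 in HCC1954_shNT.

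**Figure D1:**
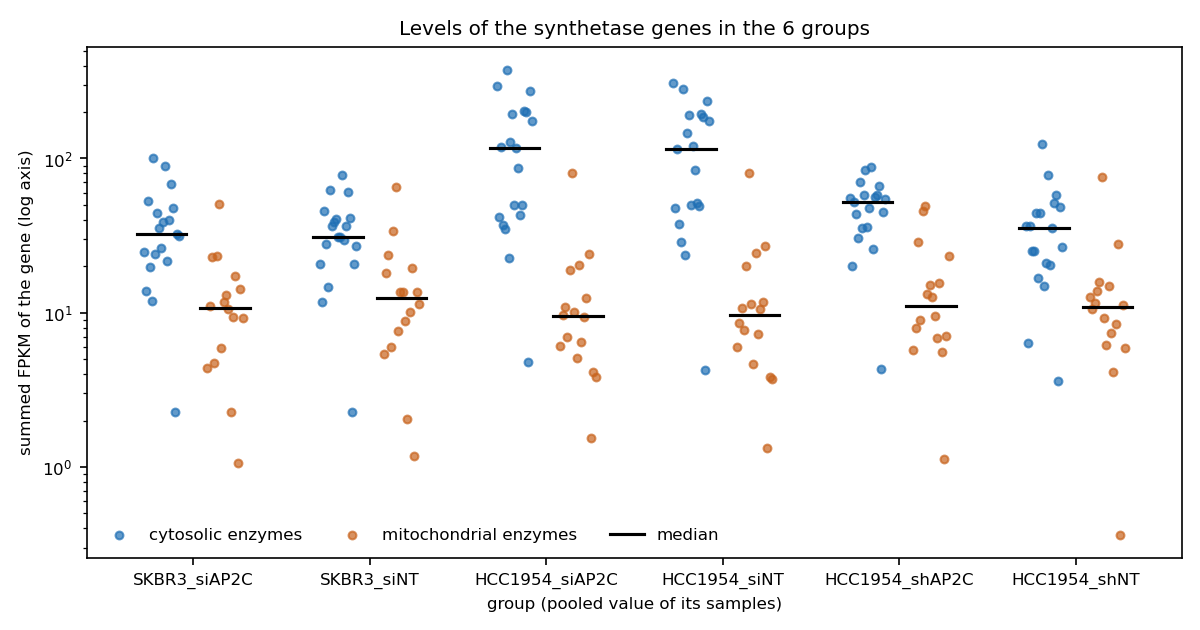
Summed FPKM (log axis) of each of the 19 cytosolic and 16 mitochondrial synthetase genes in the 6 groups, 1 point per gene, with black bars for the medians. The cytosolic median lies above the mitochondrial one in every group and is highest in the HCC1954 siRNA groups, at 117 FPKM in HCC1954_siAP2C and 115 in HCC1954_siNT.

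After siRNA in SKBR3 cells the medians of the cytosolic and the mitochondrial genes lay on opposite sides of 0. Of 18 cytosolic genes tested, 4 rose (AARS1, GARS1, MARS1 and WARS1) and 3 fell (FARSA, HARS1 and QARS1), while of 14 mitochondrial genes tested 0 rose and 3 fell (CARS2, FARS2 and LARS2). Over all 10046 genes tested, 12.5% rose and 20.7% fell, 33.2% in all, so the share of called synthetase genes, 10 of 32, was near the background. The median log2 ratio was 0.19 for the cytosolic genes and -0.20 for the mitochondrial genes, beside -0.09 over all genes tested. Ratios were above 1 for 13 of 19 cytosolic genes and for 3 of 16 mitochondrial genes. VARS1, RARS2 and VARS2 were not tested. In the authors' deposited table the q-values of the 10 called genes ran from 0.000441 to 0.0372.

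After siRNA in HCC1954 cells no synthetase gene was called. All 19 cytosolic and 15 of 16 mitochondrial genes were tested, VARS2 being the exception, and 0 rose and 0 fell, against 2.27% risen and 0.948% fallen (3.21% called) of 11078 genes. At an unadjusted p under 0.05 in the authors' deposited table, 3 of the 34 passed, with GARS1 higher and IARS1 and QARS1 lower in HCC1954_siAP2C, and no other tool could be run on pooled values. GARS1 came nearest to a call, with a p of 0.00325 and a q of 0.114 in the authors' deposited table. The medians were 0.02 (cytosolic), 0.01 (mitochondrial) and -0.01 (all genes), and single ratios ran from -0.25 to 0.41.

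In the HCC1954 shRNA clones most synthetase genes differed, as most genes did. Of 18 cytosolic genes tested, 15 rose, 1 fell (KARS1) and 2 were not called (HARS1 and WARS1). Of 14 mitochondrial genes tested, 7 rose (EARS2, HARS2, LARS2, MARS2, PARS2, SARS2 and YARS2), 6 fell (AARS2, CARS2, IARS2, NARS2, TARS2 and WARS2) and FARS2 was not called. Over 9734 genes tested, 36.4% rose and 39.1% fell, 75.5% in all, so a call by itself says little here, whereas 22 of the 32 tested synthetase genes rose. The median log2 ratio was 0.52 for the 19 cytosolic and 0.44 for the 16 mitochondrial genes, beside -0.03 over all genes tested. VARS1, RARS2 and VARS2 were not tested. The mitochondrial 0.44 includes RARS2 (0.74) and VARS2 (1.63), the latter with 0.365 FPKM in HCC1954_shNT. Over the 14 tested mitochondrial genes the median was 0.07, both by the leading entry alone and by the summed tested entries. The q-values of the called genes ran from 0.000121 to 0.0396 in the authors' deposited table.

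**Figure D2:**
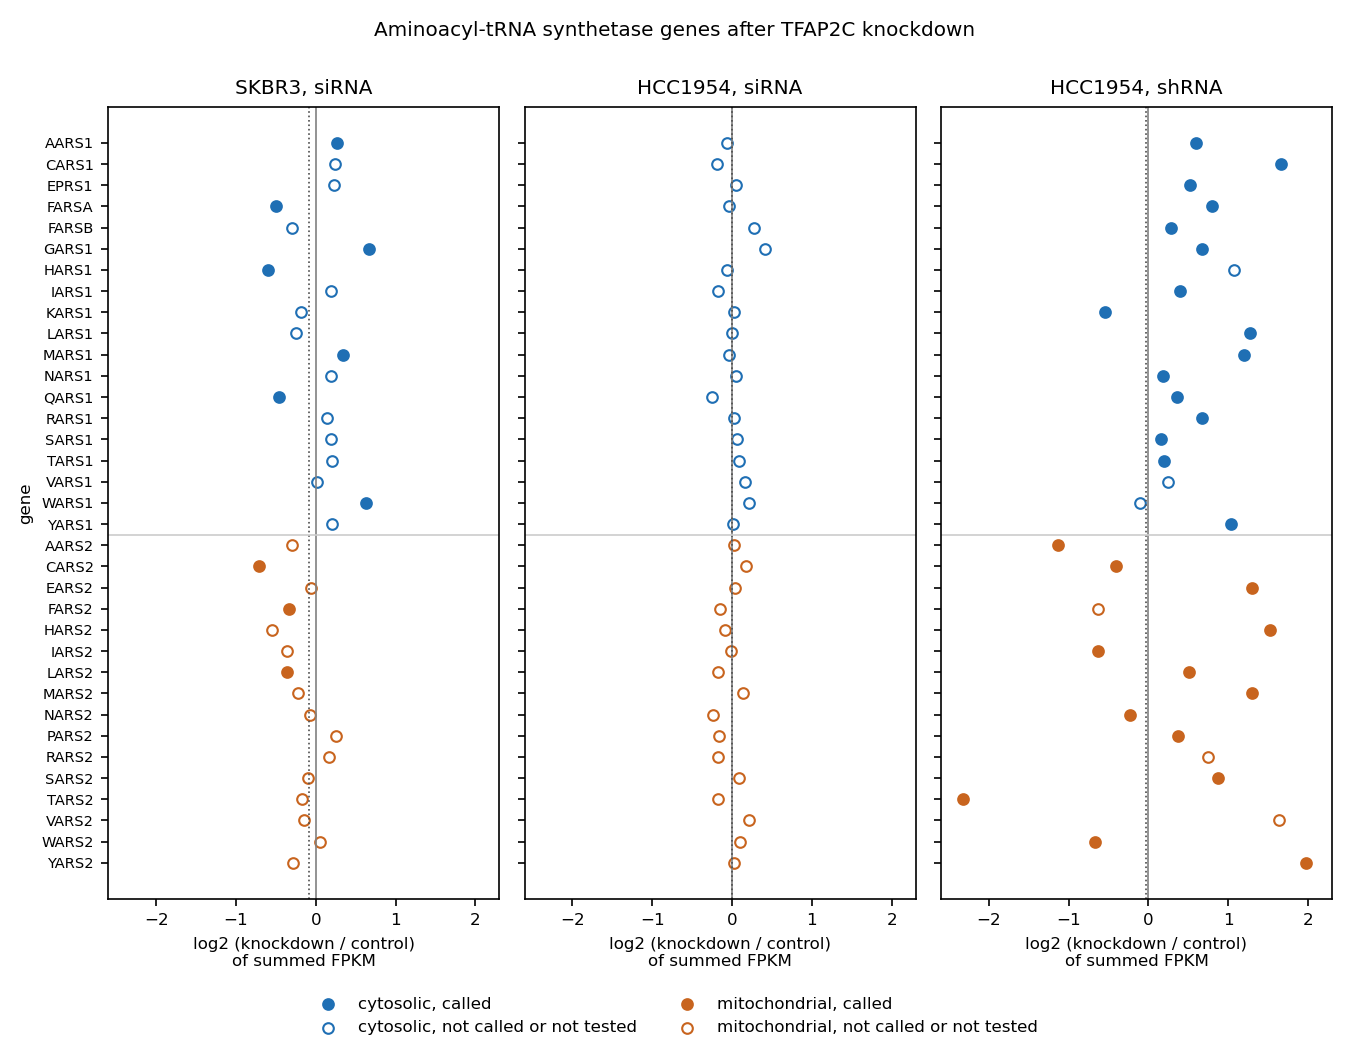
log2 ratio of summed FPKM, knockdown over control, of each synthetase gene in the 3 comparisons. Filled points are called genes (q under 0.05 of the leading entry in the authors' deposited table), open points were not called or not tested, and the dotted line is the median of all genes tested. In SKBR3 most mitochondrial points lie left of 0, in HCC1954 siRNA the points lie near 0, and with shRNA 17 of 19 cytosolic points lie right of 0 while mitochondrial points spread from -2.32 to 1.97.

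The cytosolic enzymes known as targets of ATF4 were followed as a group of 13. Of the 12 tested in SKBR3, 4 (AARS1, GARS1, MARS1 and WARS1) rose and 0 fell, with a median log2 ratio of 0.21, and with shRNA 11 of 12 rose and 0 fell, with a median of 0.52. Of the other 6 cytosolic genes, 0 rose and 3 (FARSA, HARS1 and QARS1) fell in SKBR3, with a median of -0.38 and RARS1 at 0.14, and with shRNA 4 rose and 1 fell with a median of 0.51. With siRNA in HCC1954 the medians were 0.05 and -0.01. Over all genes tested, 12.5% rose and 20.7% fell in SKBR3, and 36.4% rose and 39.1% fell with shRNA.

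GARS1, the glycyl enzyme, was the gene with the largest cytosolic rise in SKBR3. It had 99.99 FPKM in SKBR3_siAP2C and 62.9 in SKBR3_siNT, 373 in HCC1954_siAP2C and 281 in HCC1954_siNT, and 70.9 in HCC1954_shAP2C and 44.4 in HCC1954_shNT. The knockdown value was the higher in each comparison, 1.59-fold, 1.33-fold and 1.60-fold, and the rise was called in SKBR3 and with shRNA. AARS1, the alanyl enzyme, had 24.9 FPKM in SKBR3_siAP2C and 20.7 in SKBR3_siNT, 295 in HCC1954_siAP2C and 308 in HCC1954_siNT, and 55.5 in HCC1954_shAP2C and 36.6 in HCC1954_shNT. MARS1, the methionyl enzyme, had 39.0 FPKM in SKBR3_siAP2C and 30.8 in SKBR3_siNT, 117 in HCC1954_siAP2C and 121 in HCC1954_siNT, and 47.8 in HCC1954_shAP2C and 20.9 in HCC1954_shNT. Both rose in SKBR3 (1.20-fold and 1.27-fold) and with shRNA (1.52-fold and 2.29-fold), and both carry the composite motif shown above. GARS1, AARS1 and MARS1 were the 3 synthetase genes that rose in 2 comparisons. MARS1 shares exon sequence with DDIT3 and ARHGAP9, and AARS1 with DDX19B, all on the opposite strand, and since counting by strand is not stated, reads in those stretches cannot be told apart. DDIT3, a stress-induced transcription factor, had 42.7 FPKM in SKBR3_siAP2C and 15.03 in SKBR3_siNT, a ratio that was not called. It had 68.8 FPKM in HCC1954_siAP2C and 75.2 in HCC1954_siNT, also not called. With 14.5 FPKM in HCC1954_shAP2C and 5.06 in HCC1954_shNT, DDIT3 rose by a leading entry that held 31.9% of its summed FPKM.

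WARS1, the tryptophanyl enzyme, which interferon induces, had 32.2 FPKM in SKBR3_siAP2C and 20.8 in SKBR3_siNT, 275 in HCC1954_siAP2C and 237 in HCC1954_siNT, and 44.8 in HCC1954_shAP2C and 48.2 in HCC1954_shNT. It rose 1.55-fold in SKBR3, and it was among the 2 cytosolic genes with a log2 ratio below 0 with shRNA (-0.11). CARS1, the cysteinyl enzyme, had 13.8 FPKM in SKBR3_siAP2C and 11.7 in SKBR3_siNT, 41.9 in HCC1954_siAP2C and 47.9 in HCC1954_siNT, and 20.2 in HCC1954_shAP2C and 6.40 in HCC1954_shNT. With shRNA that was a 3.16-fold rise, the largest of any cytosolic gene. LARS1 for leucine (1.27), YARS1 for tyrosine (1.03) and MARS1 (1.20) were the other risen cytosolic genes with a log2 ratio above 1 in the shRNA clones.

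IARS1, the isoleucyl enzyme, had 44.03 FPKM in SKBR3_siAP2C and 38.6 in SKBR3_siNT, 129 in HCC1954_siAP2C and 146 in HCC1954_siNT, and 58.0 in HCC1954_shAP2C and 44.1 in HCC1954_shNT. NARS1, the asparaginyl enzyme, had 89.0 FPKM in SKBR3_siAP2C and 77.8 in SKBR3_siNT, 87.3 in HCC1954_siAP2C and 84.5 in HCC1954_siNT, and 88.6 in HCC1954_shAP2C and 78.2 in HCC1954_shNT. TARS1, the threonyl enzyme, had 47.7 FPKM in SKBR3_siAP2C and 41.3 in SKBR3_siNT, 199 in HCC1954_siAP2C and 187 in HCC1954_siNT, and 66.0 in HCC1954_shAP2C and 57.8 in HCC1954_shNT. All 3 rose with shRNA, by 1.32-fold, 1.13-fold and 1.14-fold in summed FPKM. The leading entries behind these calls had log2 ratios of 0.57, 0.18 and 0.55, so the call of NARS1 rests on a small ratio. The remaining risen genes of the group in the shRNA clones were EPRS1 (1.43-fold) and SARS1, for serine (1.11-fold).

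Among the other cytosolic genes, the subunits of the phenylalanyl enzyme were FARSA and FARSB. FARSA had 19.9 FPKM in SKBR3_siAP2C and 28.1 in SKBR3_siNT, 36.9 in HCC1954_siAP2C and 37.8 in HCC1954_siNT, and 43.6 in HCC1954_shAP2C and 25.2 in HCC1954_shNT. FARSB had 11.9 FPKM in SKBR3_siAP2C and 14.6 in SKBR3_siNT, 34.7 in HCC1954_siAP2C and 28.7 in HCC1954_siNT, and 30.4 in HCC1954_shAP2C and 24.97 in HCC1954_shNT. FARSA fell to 0.710-fold in SKBR3 and rose 1.73-fold with shRNA, where FARSB rose 1.22-fold. QARS1, the glutaminyl enzyme, had 21.6 FPKM in SKBR3_siAP2C and 29.7 in SKBR3_siNT, 43.0 in HCC1954_siAP2C and 51.2 in HCC1954_siNT, and 26.03 in HCC1954_shAP2C and 20.3 in HCC1954_shNT. Like FARSA it fell in SKBR3 and rose with shRNA. KARS1, the lysyl enzyme, was the exception among the cytosolic genes of the shRNA clones, at 84.5 FPKM in HCC1954_shAP2C and 124 in HCC1954_shNT, a fall to 0.684-fold. RARS1, for arginine, rose 1.59-fold in the same clones.

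The histidine pair whose shared promoter window is printed above gave like values. HARS1 had 24.1 FPKM in SKBR3_siAP2C and 36.5 in SKBR3_siNT, 22.6 in HCC1954_siAP2C and 23.7 in HCC1954_siNT, and 35.6 in HCC1954_shAP2C and 16.9 in HCC1954_shNT. HARS2 had 23.2 FPKM in SKBR3_siAP2C and 33.9 in SKBR3_siNT, 19.0 in HCC1954_siAP2C and 20.2 in HCC1954_siNT, and 45.7 in HCC1954_shAP2C and 15.9 in HCC1954_shNT. The log2 ratios of HARS1 and HARS2 were -0.60 and -0.54 in SKBR3, -0.07 and -0.09 with siRNA in HCC1954, and 1.08 and 1.52 with shRNA. The calls were the fall of HARS1 in SKBR3 and the rise of HARS2 with shRNA. Their exons overlap on opposite strands, and HARS1 also overlaps DND1 and WDR55 and HARS2 overlaps ZMAT2, so the split of reads between the 2 genes is uncertain. Their leading entries held 33.4% to 45.5% of the summed FPKM, and which entry leads decides both shRNA calls: with the entry highest over the 6 groups, HARS1 rose and HARS2 was not called.

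The mitochondrial genes that fell in SKBR3 were CARS2, FARS2 and LARS2. CARS2, the cysteinyl enzyme, had 11.1 FPKM in SKBR3_siAP2C and 18.2 in SKBR3_siNT, 9.65 in HCC1954_siAP2C and 8.59 in HCC1954_siNT, and 8.01 in HCC1954_shAP2C and 10.6 in HCC1954_shNT. It was the synthetase gene that fell in 2 comparisons, to 0.608-fold in SKBR3 and 0.756-fold with shRNA, and its exons overlap ING1 on the opposite strand. LARS2, the leucyl enzyme, had 5.95 FPKM in SKBR3_siAP2C and 7.67 in SKBR3_siNT, 10.1 in HCC1954_siAP2C and 11.4 in HCC1954_siNT, and 13.3 in HCC1954_shAP2C and 9.31 in HCC1954_shNT. It fell in SKBR3 and rose with shRNA. FARS2, the phenylalanyl enzyme, had 4.75 FPKM in SKBR3_siAP2C and 5.98 in SKBR3_siNT, 7.01 in HCC1954_siAP2C and 7.78 in HCC1954_siNT, and 8.96 in HCC1954_shAP2C and 13.8 in HCC1954_shNT. PARS2, the prolyl enzyme, had the highest mitochondrial log2 ratio in SKBR3 (0.26, not called), with 10.6 FPKM in SKBR3_siAP2C and 8.84 in SKBR3_siNT, 6.50 in HCC1954_siAP2C and 7.26 in HCC1954_siNT, and 9.53 in HCC1954_shAP2C and 7.36 in HCC1954_shNT.

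The largest mitochondrial rises in the shRNA clones, among genes averaging at least 1 FPKM, were those of YARS2, HARS2, EARS2 and MARS2. YARS2, the tyrosyl enzyme, had 9.31 FPKM in SKBR3_siAP2C and 11.4 in SKBR3_siNT, 3.81 in HCC1954_siAP2C and 3.73 in HCC1954_siNT, and 23.3 in HCC1954_shAP2C and 5.93 in HCC1954_shNT. EARS2, the glutamyl enzyme, whose product is also amidated to supply mitochondrial glutaminyl-tRNA, had 22.8 FPKM in SKBR3_siAP2C and 23.7 in SKBR3_siNT, 10.9 in HCC1954_siAP2C and 10.7 in HCC1954_siNT, and 28.6 in HCC1954_shAP2C and 11.6 in HCC1954_shNT. MARS2, the methionyl enzyme, had 11.7 FPKM in SKBR3_siAP2C and 13.7 in SKBR3_siNT, 5.09 in HCC1954_siAP2C and 4.64 in HCC1954_siNT, and 15.1 in HCC1954_shAP2C and 6.17 in HCC1954_shNT. The rises were 3.92-fold for YARS2, 2.46-fold for EARS2 and 2.45-fold for MARS2, and the ratio of none of them was called with siRNA in either line. EARS2 overlaps exons of GGA2 and UBFD1. VARS2, the valyl enzyme, was not tested in any table and had 1.06 FPKM in SKBR3_siAP2C and 1.17 in SKBR3_siNT, 1.54 in HCC1954_siAP2C and 1.33 in HCC1954_siNT, and 1.13 in HCC1954_shAP2C and 0.365 in HCC1954_shNT.

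TARS2, the threonyl enzyme, had the largest fall of any synthetase gene, in the shRNA clones. It had 17.3 FPKM in SKBR3_siAP2C and 19.5 in SKBR3_siNT, 24.2 in HCC1954_siAP2C and 27.2 in HCC1954_siNT, and 5.59 in HCC1954_shAP2C and 27.96 in HCC1954_shNT. AARS2, the alanyl enzyme, had 4.42 FPKM in SKBR3_siAP2C and 5.43 in SKBR3_siNT, 6.09 in HCC1954_siAP2C and 5.99 in HCC1954_siNT, and 5.77 in HCC1954_shAP2C and 12.6 in HCC1954_shNT. With shRNA these were falls to 0.200-fold for TARS2 and 0.457-fold for AARS2, and AARS2 overlaps an exon of TMEM151B. WARS2, the tryptophanyl enzyme, had 14.2 FPKM in SKBR3_siAP2C and 13.7 in SKBR3_siNT, 4.10 in HCC1954_siAP2C and 3.83 in HCC1954_siNT, and 7.06 in HCC1954_shAP2C and 11.3 in HCC1954_shNT. IARS2 had 50.9 FPKM in SKBR3_siAP2C and 65.1 in SKBR3_siNT, 80.4 in HCC1954_siAP2C and 80.9 in HCC1954_siNT, and 49.4 in HCC1954_shAP2C and 76.4 in HCC1954_shNT. NARS2, the asparaginyl enzyme, had 13.0 FPKM in SKBR3_siAP2C and 13.7 in SKBR3_siNT, 20.5 in HCC1954_siAP2C and 24.2 in HCC1954_siNT, and 12.7 in HCC1954_shAP2C and 14.97 in HCC1954_shNT. WARS2, IARS2 and NARS2 fell with shRNA to 0.627-fold, 0.647-fold and 0.851-fold.

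Setting each cytosolic gene beside the mitochondrial gene for the same amino acid gave 17 pairs, in which EPRS1 and FARS2 each appear in 2. The cytosolic ratio was the higher in 13 of 17 pairs in SKBR3, with a median difference of 0.28 on the log2 scale, in 10 of 17 with siRNA in HCC1954 (0.02) and in 10 of 17 with shRNA (0.41). Opposite calls within a pair numbered 5 with shRNA and 0 in each siRNA comparison. With shRNA 36.4% of all genes tested rose and 39.1% fell, so opposite calls between 2 genes are common there. In each of the 5 pairs, for alanine, cysteine, isoleucine, asparagine and threonine, the cytosolic gene rose and the mitochondrial gene fell. When a call also needed a 1.5-fold ratio, 1 of these pairs, AARS1 and AARS2, was left with opposite calls, and the cysteine pair was lost when the leading entry was taken over the 6 groups. The cytosolic genes of these pairs are AARS1, CARS1, IARS1, NARS1 and TARS1, and all 5 hold the TGATGCAA motif in the windows printed above. Most tested cytosolic genes rose with shRNA, and a link between the motif and the calls was not tested. The differences within the pairs were 1.73 for alanine, 2.06 for cysteine, 1.03 for isoleucine, 0.41 for asparagine and 2.51 for threonine. MARS1, the sixth gene with the motif, rose with MARS2 by nearly the same ratio (1.20 and 1.29).

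**Figure D3:**
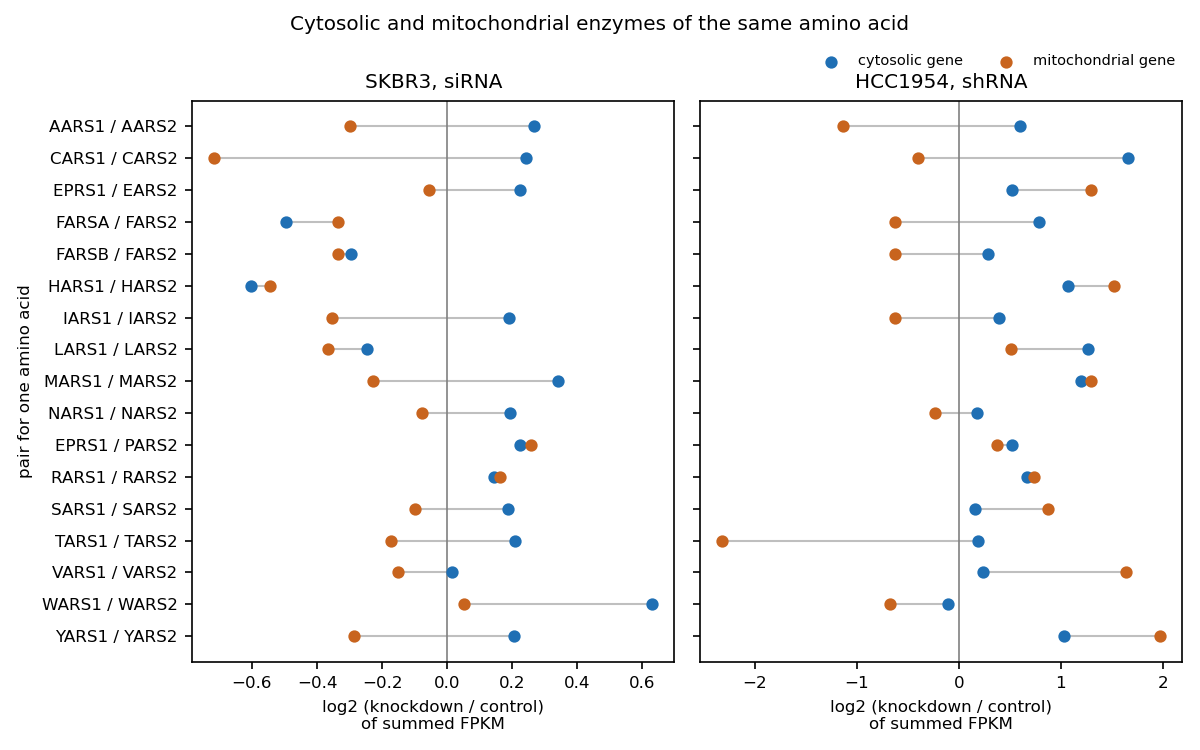
log2 ratio of summed FPKM, knockdown over control, of the cytosolic and the mitochondrial gene for each amino acid, joined by a line, in SKBR3 siRNA and HCC1954 shRNA (the panels have different scales). The cytosolic point lies right of the mitochondrial point in 13 of 17 pairs in SKBR3 and in 10 of 17 with shRNA, where TARS1 and TARS2 lie furthest apart (2.51).

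Over the 3 comparisons, 7 synthetase genes were called in 2, 25 in 1, 3 in 0, and 0 in all 3. Of all genes tested, 33.2% were called in SKBR3, 3.21% with siRNA in HCC1954 and 75.5% with shRNA. The share of all genes called in 2 comparisons was not computed, so the 7 cannot be set against a background. With 0 synthetase genes called with siRNA in HCC1954, a call in all 3 was not possible. AARS1, GARS1 and MARS1 rose in SKBR3 and with shRNA, CARS2 fell in both, and FARSA, QARS1 and LARS2 fell in SKBR3 and rose with shRNA. Whether a ratio differed between comparisons was tested by a two-sided z test on the leading entry common to a pair of tables, and p was adjusted (Benjamini-Hochberg) over every gene with such an entry. The test is a normal approximation built here from the authors' deposited statistics, and with no values per sample an exact test could not be run. Between SKBR3 siRNA and HCC1954 siRNA 0 of 32 synthetase genes differed, against 0.494% of 9109 genes, and 0 of 32 had an unadjusted p under 0.05. Between HCC1954 shRNA and HCC1954 siRNA 4 of 32 differed (MARS1, YARS1, EARS2 and YARS2), against 13.4% of 8821 genes. Between HCC1954 shRNA and SKBR3 siRNA 8 of 32 differed (FARSA, MARS1, QARS1, YARS1, EARS2, LARS2, MARS2 and YARS2), against 26.6% of 8537 genes, and each was higher with shRNA. The shares of synthetase genes in the comparisons with shRNA, 12.5% and 25%, were thus near those of all genes. The standard errors behind these counts rest on the deposited statistic, which was 0.501, 0.406 and 0.301 times the normal quantile of the deposited p (medians for siRNA in SKBR3, siRNA in HCC1954 and shRNA, over genes with p above the smallest value and at most 0.5), so it is not on the scale the test assumes. With standard errors from the deposited p instead, 1, 21 and 20 of 32 synthetase genes differed in the 3 comparisons, in the order above, against 12.1%, 48.7% and 60.3% of all genes. All 12 differences named here passed under both. How many synthetase genes differ is therefore uncertain, and the other genes are not shown to act alike. Across the 35 genes the ratios of 2 comparisons were weakly related at most: Pearson's r was 0.07 between shRNA and SKBR3, 0.09 between shRNA and siRNA in HCC1954 and 0.23 between the siRNA comparisons, as a description over genes that share libraries.

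In the shRNA clones the ratio of a synthetase gene went with the ratios of the genes around it. The 20 nearest tested genes, 10 on each side in GRCh37 order, gave a median log2 ratio for each synthetase locus, and the ratio of the synthetase gene was related to it with Pearson's r of 0.76 and Spearman's rho of 0.79 over 35 genes (r of 0.87 for the mitochondrial and 0.68 for the cytosolic genes). These genes share libraries, and the HARS1 and HARS2 loci and the EPRS1 and IARS2 loci share neighbours. Over all 9057 genes the same measure gave r of 0.27 and rho of 0.39. With siRNA, r over the 35 genes was -0.28 in SKBR3 and 0.05 in HCC1954.

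TARS2 lies on chromosome 1 (chr1:150459890-150480078, plus strand, GRCh37), and its neighbours had a median log2 ratio of -0.66 beside -2.32 for TARS2 with shRNA. AARS2 (chr6:44266468-44281084, minus strand) had -1.13 beside -0.44 for its neighbours. YARS2 (chr12:32880424-32908831, minus strand) had 1.97 beside 0.58. These 3 lay further from 0 than their neighbours and on the same side. Among cytosolic genes, IARS1 (chr9:94972489-95056136, minus strand) had 0.40 beside -0.72, SARS1 (chr1:109756540-109780804, plus strand) 0.16 beside -0.74, and GARS1 (chr7:30620149-30673649, plus strand) 0.67 beside -0.34. Their ratios thus had the sign opposite to that of their neighbours. The ratio was above the neighbours' median for 17 of 19 cytosolic and 11 of 16 mitochondrial genes with shRNA, against 4538 of all 9057 genes. The sign was shared for 26 of 35 (74.3%), against 65.6% of all genes.

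**Figure D4:**
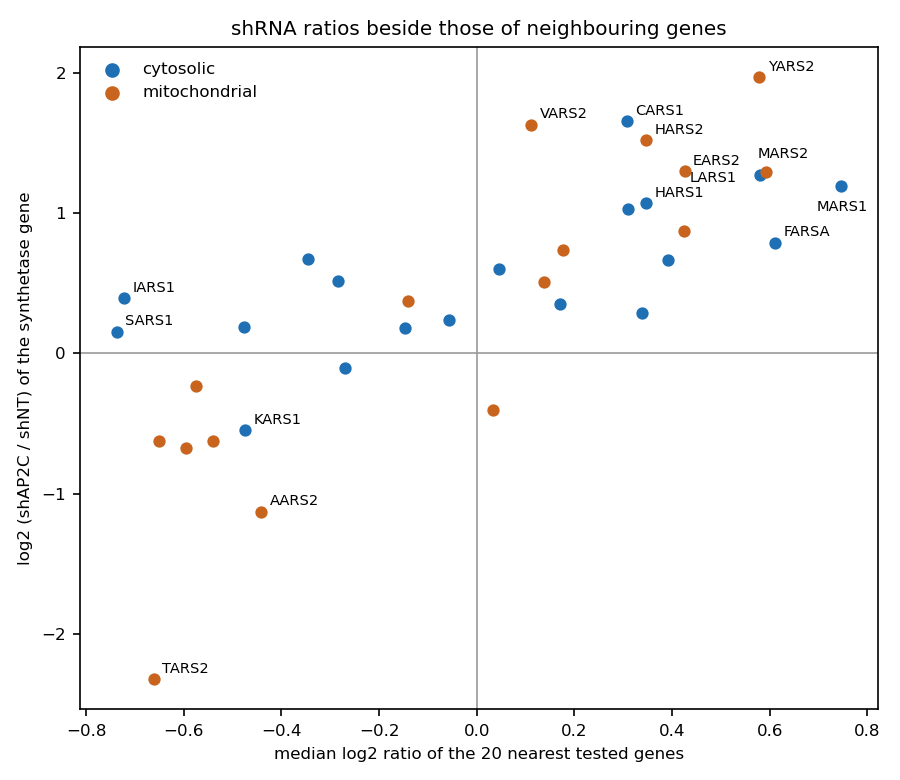
log2 ratio of each synthetase gene in the HCC1954 shRNA comparison (vertical axis) against the median log2 ratio of its 20 nearest tested genes (horizontal axis), 1 point per gene, with the genes at the edges named. The points rise from TARS2 at the lower left to YARS2 at the upper right, with r of 0.76 over 35 genes.

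The controls of HCC1954 differed in these genes as well. HCC1954_siNT and HCC1954_shNT stand in tables that were normalized separately, so their ratio is a description with no test. The median log2 ratio of HCC1954_siNT over HCC1954_shNT was 1.69 for the cytosolic genes and -0.03 for the mitochondrial genes, beside -0.04 over 11679 genes. At least 2-fold higher in HCC1954_siNT were 12 of 19 cytosolic genes (63.2%) and 2 of 16 mitochondrial genes, against 12.6% of all genes. AARS1 was 8.44-fold, CARS1 7.48-fold, YARS1 6.54-fold, GARS1 6.32-fold, MARS1 5.78-fold and WARS1 4.92-fold higher in HCC1954_siNT. The known ATF4 targets had a median of 1.92, with 11 of 13 at least 2-fold higher, and the other cytosolic genes a median of 0.54, with 1 of 6. NARS1, a member of the ATF4 group with the motif, was at 84.5 FPKM in HCC1954_siNT and 78.2 in HCC1954_shNT.

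Of the 20 amino acid response genes outside the synthetases, most were higher in HCC1954_siNT as well. Their median was 2.18, 15 of 20 were at least 2-fold higher in HCC1954_siNT, and CHAC1, which degrades glutathione, and ASNS had log2 ratios of 5.02 and 4.51. CEBPB, which encodes a C/EBP protein, and ATF5 lay on the other side, with log2 ratios of -0.83 and -0.82. HCC1954_siNT also stood above SKBR3_siNT, with medians of 1.69 for the cytosolic and 0.16 for the mitochondrial genes, whereas HCC1954_shNT over SKBR3_siNT gave -0.05 and -0.25. By the cytosolic medians HCC1954_siNT thus stood above both other controls. Which HCC1954 control departs from the usual level of the line was not tested. Transfected cells and stable clones were separate preparations in separate tables, and these cannot be told apart.

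**Figure D5:**
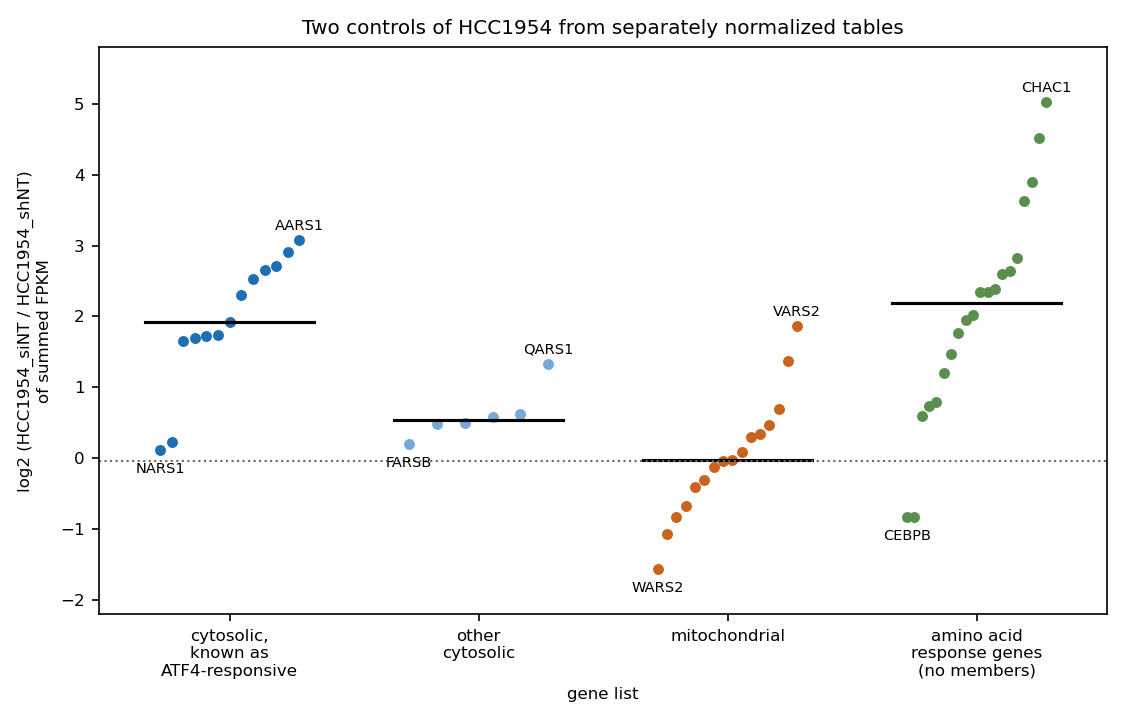
log2 ratio of summed FPKM of HCC1954_siNT over HCC1954_shNT for the 13 cytosolic genes known as ATF4 targets, the other 6 cytosolic genes, the 16 mitochondrial genes and 20 amino acid response genes that are not synthetases, 1 point per gene, with bars for the medians (1.92, 0.54, -0.03 and 2.18) and a dotted line for the median of all genes (-0.04). The lowest point of the first group is NARS1 and the highest is AARS1 (3.08).

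The 20 amino acid response genes were also read in each knockdown. In SKBR3, 15 of 20 rose and 1 fell (SLC7A5, a transporter of large neutral amino acids), with a median log2 ratio of 0.54. Of all genes tested in SKBR3, 12.5% rose and 20.7% fell. The largest rises were those of CHAC1 (43.5 FPKM in SKBR3_siAP2C and 5.34 in SKBR3_siNT) and the cystine transporter SLC7A11 (7.92 FPKM in SKBR3_siAP2C and 1.38 in SKBR3_siNT). With siRNA in HCC1954, 2 of 20 rose, SLC3A2 and PPP1R15A, and 0 fell, against 2.27% and 0.948% of all genes tested. With shRNA 8 rose and 6 fell of 19 tested, with a median of -0.02. Of all genes tested with shRNA, 36.4% rose and 39.1% fell, so these counts lie near the background. ASNS rose there, at 42.2 FPKM in HCC1954_shAP2C and 8.38 in HCC1954_shNT, as did ATF4, at 438 FPKM in HCC1954_shAP2C and 179.7 in HCC1954_shNT, while SLC3A2 and PPP1R15A fell. The largest change in the list with shRNA was a fall of CEBPB, at 14.1 FPKM in HCC1954_shAP2C and 168 in HCC1954_shNT.

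By their place in the cell, the 7 enzymes of the multi-synthetase complex had 1 risen (MARS1) and 1 fallen (QARS1) gene in SKBR3, and 6 risen and 1 fallen (KARS1) with shRNA. The 12 cytosolic genes outside the complex had 3 risen and 2 fallen in SKBR3, and 9 risen and 0 fallen of 11 tested with shRNA. Of the scaffold genes AIMP1, AIMP2 and EEF1E1, 0 were called in any of the 3 comparisons. Their log2 ratios with shRNA were -0.06, 0.15 and 0.02. By structural class, leaving out EPRS1, the 18 class I genes had 11 risen and 3 fallen of 15 tested with shRNA, and the 16 class II genes 10 risen and 4 fallen of 16. The shares over all genes tested were 12.5% risen and 20.7% fallen in SKBR3, and 36.4% and 39.1% with shRNA.

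The genes next in the pathway were read in the same way. Of 5 cytosolic elongation factors, which bring the loaded tRNA to the ribosome or move it along, 1 fell in SKBR3 (EEF1G) and 0 rose. Among all genes tested in SKBR3, 20.7% fell and 12.5% rose. With shRNA 4 rose, among them EEF1B2 (189.6 FPKM in HCC1954_shAP2C and 66.4 in HCC1954_shNT), and EEF1D fell by its leading entry while its summed FPKM had a log2 ratio of 0.04. Of 13 genes for mitochondrial translation factors and tRNA amidation, 4 fell in SKBR3 (TUFM, TSFM, GFM1 and MTFMT) and 0 rose of 12 tested, with a median log2 ratio of -0.22. TUFM, the mitochondrial elongation factor Tu, had 105 FPKM in SKBR3_siAP2C and 146 in SKBR3_siNT, 98.8 in HCC1954_siAP2C and 95.2 in HCC1954_siNT, and 129 in HCC1954_shAP2C and 56.3 in HCC1954_shNT. With siRNA in HCC1954 0 of 13 were called, against 3.21% of all genes tested. With shRNA 7 rose and 1 fell (GFM1) of 12 tested, beside 36.4% risen and 39.1% fallen of all genes tested. QRSL1, a subunit of the amidotransferase that acts on the product of EARS2, rose with EARS2 in those clones, at 8.24 FPKM in HCC1954_shAP2C and 4.72 in HCC1954_shNT.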

How the data were processed

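Messenger RNA was sequenced after TruSeq RNA library preparation, per the labels' protocols. The submitters' processing notes name Bowtie 0.12.2, Cuffdiff without a version, hg19 and GRCh37. The 3 genome-wide tables were used as deposited. Each holds, per RefSeq accession, 1 FPKM value per group, pooled over its samples by the authors. Per the file headers, the authors also give each accession a p-value, a q-value and a test statistic, a score taken as deposited. The line of the HCC1954 siRNA table is read from the table's name, since its columns state the treatment alone. No value belongs to a single sample, so no model was fitted, and depth per sample is unknown.

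Of 66321 accessions, 65468 were matched to symbols through RefSeq's gene table and 853 were not. FPKM were summed per symbol. Adjusting the deposited p anew (Benjamini-Hochberg, tested accessions) changed 0 calls. For the difference between comparisons, the standard error of a log2 ratio was taken as the ratio over the deposited statistic, and the z test, a normal approximation, was tested on simulated data that shared this assumption. The deposited statistic turned out smaller than the normal quantile of the deposited p, so these standard errors are too wide if that p holds. Gene neighbours and exon overlaps come from GENCODE on GRCh37, and promoters from RefSeq (GRCh38.p14), matched by symbol. The members and lists were chosen with earlier results of these data known. Every member could be named. Full values were printed for members called in at least 2 comparisons, the 5 largest rises and falls per comparison at 1 FPKM or more, and pairs with opposite calls. Some genes of each other list were named. Python 3.11.15, numpy 2.4.6, pandas 2.3.3, scipy 1.17.1 and matplotlib 3.10.9 were used. Alternatives were other thresholds, another leading entry, a pseudocount, a filter on low FPKM and another standard error.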

Additional observations from a re-analysis of the deposited data

Results flagged for a closer look

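The ratio of 8 synthetase genes differed between comparisons by the two-sided z test on the leading entry, with p adjusted over every gene tested in the pair of tables. That test is a normal approximation computed here from pooled groups of 3 samples, no exact test could be run without values per sample, and the deposited statistic it rests on is not on a normal scale, so the p-values below are approximate. All 12 differences also passed with standard errors from the deposited p. By count, 4 of 32 synthetase genes (12.5%) differed between HCC1954 shRNA and HCC1954 siRNA, against 13.4% of all genes compared. Between HCC1954 shRNA and SKBR3 siRNA 8 of 32 (25%) differed, against 26.6%. Both counts lie near the background, so they show nothing particular to the synthetase genes. Differences are on the log2 scale. From the statistics the authors deposited, between HCC1954 shRNA and HCC1954 siRNA, MARS1 differed by 1.24 (adjusted p = 0.00932), YARS1 by 1.02 (adjusted p = 0.0409), EARS2 by 1.27 (adjusted p = 0.0398) and YARS2 by 1.94 (adjusted p = 0.0216).

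From the same statistics that the authors gave, between HCC1954 shRNA and SKBR3 siRNA, the cytosolic genes FARSA (1.29, adjusted p = 0.000200), MARS1 (0.85, adjusted p = 0.00876), QARS1 (0.80, adjusted p = 0.0334) and YARS1 (0.83, adjusted p = 0.0132) differed. Among the mitochondrial genes, again from statistics that the authors gave, EARS2 (1.37, adjusted p = 3.18e-05), LARS2 (0.88, adjusted p = 0.0355), MARS2 (1.52, adjusted p = 0.000299) and YARS2 (2.26, adjusted p = 1.34e-06) differed. In each of the 12 differences the ratio was the higher with shRNA. Line and way of knockdown cannot be told apart in the comparison with SKBR3.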

How the results depend on the processing

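Of 135 alternatives to the counts and medians, 121 left the value within 1.5 times a count or near a median, and 14 moved it. A change of sign was not looked for among these. Of 587 alternatives for single genes 561 kept their call or their lack of one. Many could not change, since a stricter setting can take a call away but cannot give one to an uncalled gene. This tally is therefore no measure of how steady the calls are. The 1.5-fold rule took away 17 calls and q under 0.01 took away 5. At q under 0.01 the mitochondrial genes that fell in SKBR3 numbered 1. When a call also needed a 1.5-fold ratio, SKBR3 had 2 risen and 1 fallen cytosolic genes and 1 fallen mitochondrial gene, and shRNA had 9 risen and 0 fallen cytosolic genes and 1 pair with opposite calls. Fewer genes can pass these stricter thresholds by construction. The mitochondrial median with shRNA was 0.0656 by the leading entry alone and 0.0656 by tested entries alone, settings that leave out the untested VARS2 and RARS2. With standard errors taken from the deposited p, 1 gene (SKBR3 siRNA against HCC1954 siRNA), 21 (HCC1954 shRNA against HCC1954 siRNA) and 20 (HCC1954 shRNA against SKBR3 siRNA) differed, and at an adjusted p under 0.01 there were 1 and 5 in the comparisons with shRNA. The first of these settings gives narrower errors for genes above the smallest p, where the deposited statistic is, by its median, below the normal quantile of its p. By single genes, q under 0.01 lost AARS1, HARS1, FARS2 and LARS2 in SKBR3 and SARS1 with shRNA, and adjusting over 1 entry per gene gave IARS2 a call as fallen in SKBR3. No paired analysis was possible because the columns hold pooled groups and carry no replicate, and leaving out replicates was not run for the same reason. Depth limits cannot be stated, since FPKM carry none.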
